A study of Mus musculus with 4 samples.

Results

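Basal cells of the mouse stria vascularis (SV) were examined in the single-cell captures, as the barcodes selected by a gate on raw UMI counts. A barcode (a droplet) was kept if it held at least 200 genes and Malat1, a nuclear RNA, made up at least 1% of its UMIs. In addition, the UMIs of Cldn11, Tjp1, Col11a2 and Nr2f2 together had to reach 6 and 0.15% of all UMIs. They also had to be at least 2 times those of 4 intermediate cell genes (Met, Pax3, Nrp2 and Pde1c) and at least 2 times those of 4 marginal cell genes (Lrp2, Kcnq1, Esrrb and Atp13a5), with at most 1 UMI of the spindle cell genes Slc26a4 and P2rx2. The barcodes selected are called basal-gate cells, because the markers went against the label in 29 of them. The gate selected 135 of the 3188 barcodes with at least 200 genes, 16 of 378 in capture 1, 68 of 1329 in capture 2 and 51 of 1481 in capture 3. These were 4.23%, 5.12% and 3.44% of the captures, with exact binomial 95% intervals of 2.44 to 6.78%, 3.99 to 6.44% and 2.57 to 4.50%, which cover counting error only. The series measured RNA in the SV of CBA/J mice (strain 000656) at P30 with 10x Genomics droplets, as 3 captures of trypsin-dissociated cells and 1 capture of nuclei, and no treatment or mutant was compared. Each suspension was pooled from several mice, so the capture is the replicate (n = 3) and differences between animals are not visible. The same kind of gate on the intermediate and marginal cell genes gave the comparison groups of 679 intermediate cells (98, 313 and 268) and 85 marginal cells (10, 50 and 25).

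Basal cells form the layer of the SV that faces the spiral ligament. They are joined to each other by tight junctions built on claudin 11, which seal the intrastrial space from the perilymph of the ligament, and by gap junctions to intermediate cells and to ligament fibrocytes, through which potassium is thought to reach the intermediate cells. The stria generates the endocochlear potential, and loss of claudin 11 in mice or of the connexins encoded by Gjb2 and Gjb6 in mice and humans impairs hearing.

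The promoters of 3 junction genes are shown because the gate rests mainly on Cldn11 and because the neighbouring genes Gjb2 and Gjb6 separated the selected cells into a pair of sets. Each is the RefSeq sequence of GRCm38.p6, 250 bases before to 50 bases after the start of the gene, 5′ to 3′ on the strand of the gene, with matches to GGGCGG or its reverse complement CCGCCC in capitals. The windows are chr3:31149670-31149969 on the plus strand for Cldn11, chr14:57104653-57104952 on the minus strand for Gjb2 and chr14:57133562-57133861 on the minus strand for Gjb6.
Cldn11: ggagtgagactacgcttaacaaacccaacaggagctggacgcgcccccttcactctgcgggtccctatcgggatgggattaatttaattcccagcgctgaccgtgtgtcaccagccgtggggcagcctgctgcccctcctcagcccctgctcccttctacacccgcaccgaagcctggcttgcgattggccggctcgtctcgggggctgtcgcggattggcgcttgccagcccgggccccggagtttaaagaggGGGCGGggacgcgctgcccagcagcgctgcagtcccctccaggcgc
Gjb2: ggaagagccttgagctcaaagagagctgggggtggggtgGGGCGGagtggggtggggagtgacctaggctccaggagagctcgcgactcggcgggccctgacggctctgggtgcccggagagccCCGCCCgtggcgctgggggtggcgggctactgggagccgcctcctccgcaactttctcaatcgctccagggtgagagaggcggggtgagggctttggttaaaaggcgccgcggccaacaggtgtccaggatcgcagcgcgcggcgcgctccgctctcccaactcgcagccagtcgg
Gjb6: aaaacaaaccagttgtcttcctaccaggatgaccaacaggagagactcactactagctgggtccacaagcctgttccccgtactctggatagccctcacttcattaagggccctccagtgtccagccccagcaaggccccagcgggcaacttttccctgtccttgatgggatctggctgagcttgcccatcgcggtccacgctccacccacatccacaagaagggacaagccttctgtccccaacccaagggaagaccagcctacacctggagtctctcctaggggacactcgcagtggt
The Cldn11 window held 1 match, the Gjb2 window 2 matches, 1 on each strand, and the Gjb6 window none. Of 32851 promoters of the same length, 11714 (35.7%) held the motif on either strand. GC content was 66.3% for Cldn11, 70% for Gjb2 and 57.3% for Gjb6, against a median of 52.7% over all promoters. A match describes the letters of the window and no binding was measured.

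The 4 genes of the gate are given as a description, because they chose the cells. Cldn11, which encodes the tight junction strand protein claudin 11, stood at 3842, 3790 and 3416 CPM (UMIs scaled to 1000000) in the summed basal-gate cells of captures 1, 2 and 3, against a mean of 29.2 CPM in intermediate and 246 CPM in marginal cells. Tjp1, which encodes the junction scaffold ZO-1, stood at 179, 293 and 289 CPM. Col11a2, a fibrillar collagen chain, stood at 213, 250 and 173 CPM, and Nr2f2, an orphan nuclear receptor, at 344, 404 and 483 CPM. At least 1 UMI was found for Cldn11 in 100% of basal-gate cells, for Nr2f2 in 81.5%, for Tjp1 in 74.8% and for Col11a2 in 64.4%. In 97 erythroid barcodes of captures 2 and 3, which should lack these genes, the shares were 5.15%, 1.03%, 2.06% and 0%. The median depth of these barcodes was 9859 and 9903 UMIs, against 9794.5 and 4870 UMIs for basal-gate cells of the same captures.

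Gates on 3 of the 4 genes show how far the selection rests on each gene. Without Cldn11 only 18 cells (1, 9 and 8) were selected, and all of them had Cldn11 UMIs, at 3239, 4067 and 3874 CPM. Without Tjp1, 133 cells were selected, without Col11a2, 131, and without Nr2f2, 125, and in these the gene left out of the gate stood at 179, 293 and 287 CPM (Tjp1), 218, 249 and 168 CPM (Col11a2) and 347, 390 and 446 CPM (Nr2f2). Each of these gates selects part of the same 135 cells, so that like levels follow from the overlap and do not check the label. Near the limits, 11 selected cells had 6 to 8 UMIs of the 4 genes and 4 further barcodes failed only by having 4 or 5. The ratio to the intermediate cell genes was between 2 and 3 in 12 selected cells and between 1 and 2 in 15 barcodes outside.

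The 135 cells were not of 1 kind. The UMIs of Gjb2 (the gene of connexin 26) and Gjb6 (that of connexin 30) together made up 0.138 to 1.17% of the UMIs in 106 cells (15, 54 and 37 in captures 1, 2 and 3), with UMIs of both genes in each of the 106. In the remaining 29 cells (1, 14 and 14) they made up at most 0.017%. Those 29 cells held 3 to 127 UMIs of Dcn (median 19), which encodes the matrix proteoglycan decorin, whereas 1 of the 106 held 1 Dcn UMI and the others none. No cell lay between these ranges. The sets are called Gjb2/Gjb6 cells and Dcn cells here. They were separated after their values were seen, so their differences are described without a test.

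**Figure D1:**
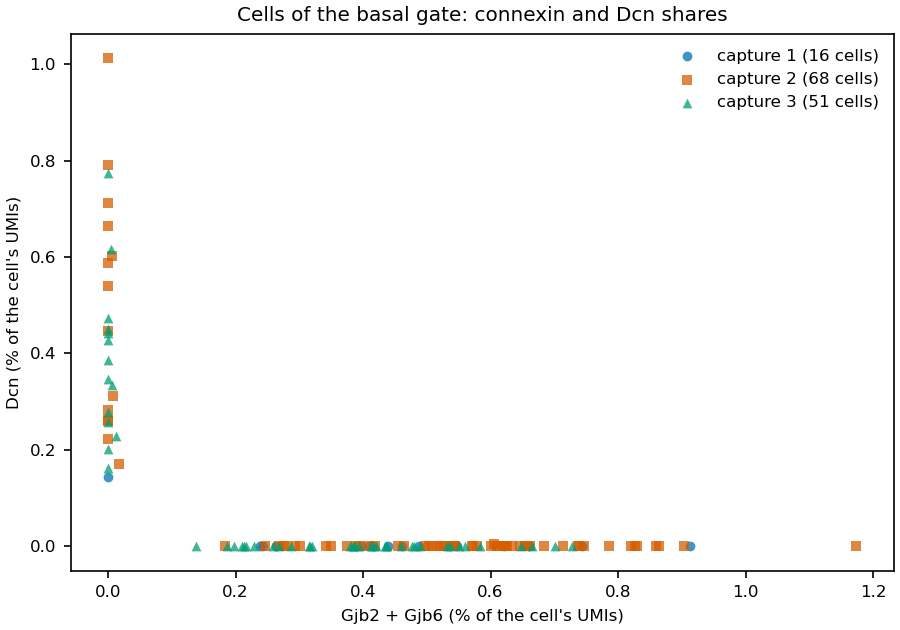
Each point is 1 of the 135 basal-gate cells, with the share of its UMIs from Gjb2 and Gjb6 (percent, horizontal) and from Dcn (percent, vertical), by capture. The 106 Gjb2/Gjb6 cells lie at 0.138 to 1.17% with almost no Dcn, and the 29 Dcn cells lie at or under 0.017% of Gjb2 and Gjb6.

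The markers went against the label basal cell for the Dcn cells. Col11a2 gave 270 UMIs in 87 of the 106 Gjb2/Gjb6 cells and 0 UMIs in the 29 Dcn cells, where 0 of 195581 UMIs allows up to 15.3 CPM. Cldn11 was present in all 29 Dcn cells, at 2163 and 2393 CPM in captures 2 and 3, against 3860, 4071 and 3849 CPM in the Gjb2/Gjb6 cells of captures 1, 2 and 3. Nr2f2 was higher in Dcn cells (867 and 1053 CPM) than in Gjb2/Gjb6 cells (334, 324 and 242 CPM), and Tjp1 stood at 366 and 307 CPM against 180, 281 and 281 CPM. The Dcn cells therefore passed the gate through Cldn11, Nr2f2 and Tjp1. They gave no UMI of the fourth gene and only 4 UMIs of Gjb2 and 2 of Gjb6. The single Dcn cell of capture 1 gives no level of its own.

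**Figure D2:**
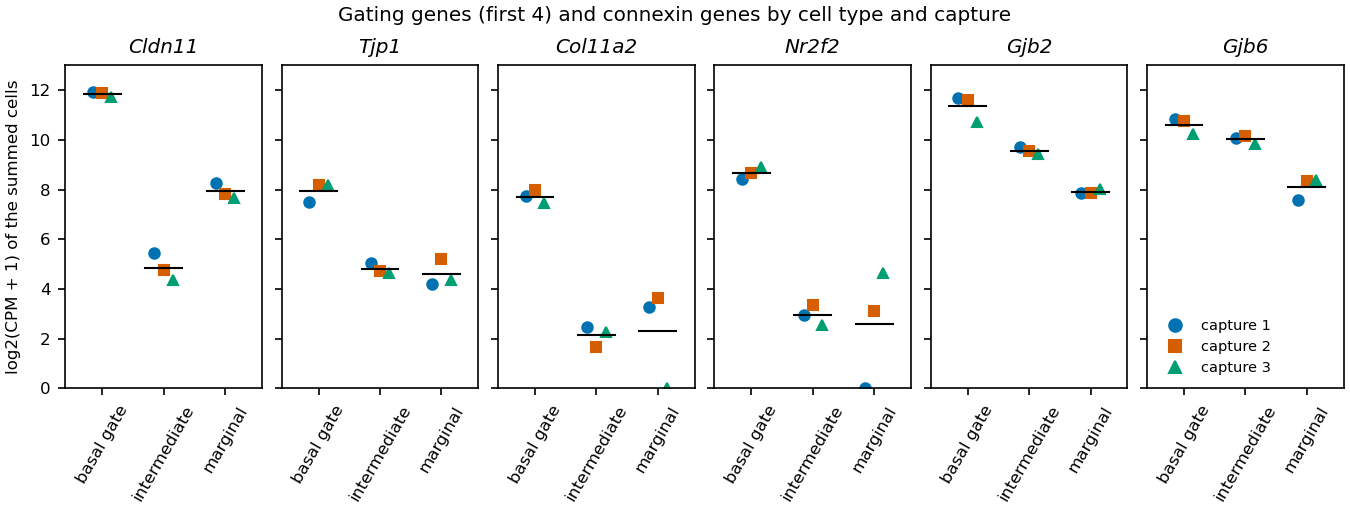
Levels of the 4 gating genes and of Gjb2 and Gjb6 as log2(CPM + 1), with 1 point per capture and cell type and a line at the mean of the captures. All 4 gating genes lie higher in basal-gate cells, by construction, and Gjb2 and Gjb6 are also found in intermediate and marginal cells.

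By a rule of at least 5 times the CPM in both captures 2 and 3 and a mean of at least 200 CPM, 75 of 521 genes at that mean led the Gjb2/Gjb6 cells and 68 of 532 led the Dcn cells, after the genes of the gate and of the split were left out. Among the first were S100b, a calcium-binding protein, at 4524, 4325 and 4800 CPM in captures 1, 2 and 3 against 125 and 194 CPM in the Dcn cells of captures 2 and 3. Ptgds, the prostaglandin D synthase, stood at 31807, 26091 and 22816 CPM against 794 and 593 CPM. Cdh1, encoding E-cadherin, stood at 643, 729 and 554 CPM against 0 and 20.5 CPM. The actin-binding genes Enah (1488, 2004 and 1816 CPM against 0 and 40.9 CPM) and Actn1 (1664, 1631 and 1514 CPM against 0 and 30.7 CPM) were found almost only in the Gjb2/Gjb6 cells. The Dcn cells had more Mdk, the growth factor midkine, at 1536 and 1524 CPM against 8.58, 7.20 and 21.6 CPM. They also had Cav1, the caveolar coat protein, at 1118 and 1391 CPM against 72.9, 48.6 and 34.6 CPM, and Igfbp4, which binds insulin-like growth factors, at 1369 and 1074 CPM against 150, 73.8 and 47.6 CPM. The chemokine gene Ccl11 gave 209 UMIs in 28 of the 29 Dcn cells and 0 in the 106 others. Mfap5, a microfibril protein, stood at 564 and 440 CPM in Dcn cells and gave no UMI in the others.

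Markers of other cell types and quality measures also differed between the sets. Of the 6 markers of fibrocytes, Dcn itself separated the sets and gave 834 of the 1048 UMIs in Dcn cells. The other 5, all detected, summed to 1066 and 1104 CPM in Dcn cells of captures 2 and 3 and to 244, 414 and 480 CPM in Gjb2/Gjb6 cells, and the most abundant of them was Cp, at 864 and 250 CPM over all cells of the sets. Car3 was also higher in Dcn cells (169 against 69.6 CPM), whereas Coch was lower (10.2 against 41.2 CPM), and Otos (35.8 against 24.5 CPM) and Otor (15.3 against 4.90 CPM) rest on 7 and 3 UMIs in Dcn cells. The 5 endothelial markers summed to 669 and 337 CPM in Dcn cells and to 25.7, 9.0 and 4.32 CPM in the others. In Dcn cells Emcn stood at 363 CPM, Flt1 at 102 CPM and Cdh5 at 30.7 CPM, and Pecam1 and Cldn5 gave 0 UMIs. Of the pericyte markers only Pdgfrb was found in Dcn cells (71.6 CPM). Macrophage markers gave 0 UMIs and bone and cartilage markers 1 UMI in Dcn cells. Intermediate cell markers were higher in the Gjb2/Gjb6 cells, at 8302, 5313 and 3983 CPM against 303 and 368 CPM. The median mitochondrial share was 19.9% in Gjb2/Gjb6 cells and 6.42% in Dcn cells, and the median depth was 8449 and 4150 UMIs. Scrublet, which scores doublets, marked none of the 135 cells. Only the 1, 15 and 20 barcodes with the highest scores in captures 1, 2 and 3 were marked, a number fixed by capture size. Doublets among the 135 cells are therefore not excluded. One Gjb2/Gjb6 cell of capture 1 held 41656 UMIs, of which 89 were of the 4 marginal cell genes, the highest such value in the gate.

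The libraries differed in depth and composition. Basal-gate cells contributed 235268, 651114 and 329031 UMIs in captures 1, 2 and 3, of 2739205, 7974660 and 7901960 UMIs in the captures. The median was 11570, 9794.5 and 4870 UMIs and 3004, 2715.5 and 1676 genes per basal-gate cell, so capture 3 was the shallowest. Mitochondrial genes made up a median of 18.7%, 17.9% and 14.9% of UMIs in basal-gate cells, 29.4%, 32.3% and 34.3% in intermediate cells and 15.8%, 26.3% and 24.8% in marginal cells. Captures 1 and 2 shared 2 barcodes, captures 2 and 3 shared 6 and captures 1 and 3 none, and no barcode was a basal-gate cell in more than 1 capture.

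Basal-gate cells were next compared with the mean of intermediate and marginal cells, with UMIs summed per capture and type and the capture as a block in edgeR's quasi-likelihood test. Of 6736 genes tested, 1157 (17.2%) were higher and 1076 (16%) lower at an adjusted p under 0.05, after the genes of the gates were left out of the counts. The filter on low counts asked for the CPM of 10 UMIs in at least 3 of the 9 sums, and 801 of the 6736 genes (11.9%), among them 330 of the 1157 higher genes, reached this only with the basal-gate sums counted, so that they entered through the group where they were high. Without capture 2, which held the most basal-gate cells, 635 genes were higher and 396 lower of 4809 tested, and DESeq2 called 875 higher and 647 lower. Against intermediate cells alone 1136 genes (16.9%) were higher and 1051 (15.6%) lower, and against marginal cells alone 1057 (15.7%) were higher and 996 (14.8%) lower. Without TMM scaling, which raised the median log2 fold change against intermediate cells to 0.20 and lowered that against marginal cells to −0.13, the counts were 1516 and 749 against intermediate and 912 and 1216 against marginal cells. For 874 genes (13%) the 3 basal-gate sums lay above all 6 other sums and for 447 genes (6.64%) below them. The median log2 fold change over all genes tested was −0.03. With the 106 Gjb2/Gjb6 cells alone as basal-gate cells, a split made after the data were seen, 1160 of 6684 genes (17.4%) were higher and 1076 (16.1%) lower, with a median of −0.05. Of these, 1002 and 932 were also called with all 135 cells.

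The 24 genes named by rule for the largest fold changes all had basal-gate sums above every other sum, which the rule largely fixes. All of them except Apod passed the filter on low counts only with the basal-gate sums counted, so their p-values describe genes that had to be high there. They comprised transcription factors, secreted proteins, transporters and receptors. Among the transcription factors, Tbx18, a T-box factor of otic mesenchyme, stood at 251, 370 and 298 CPM in basal-gate cells of captures 1, 2 and 3 against means of 2.01 CPM in intermediate and 4.14 CPM in marginal cells. Its log2 fold change against intermediate cells was 7.31 ± 0.31 (SE, edgeR quasi-likelihood test, Benjamini-Hochberg adjusted p = 1.08e-18), and it was 97.9-fold above marginal cells, where it gave 3 UMIs (Poisson 95% interval of the ratio 33.3 to 477). The level was similar in the sets, at 253, 355 and 298 CPM in Gjb2/Gjb6 cells and 460 and 297 CPM in Dcn cells. Ebf1 stood at 383, 584 and 699 CPM (log2 fold change against the mean of both types 6.91 ± 0.26), and its level was higher in Dcn cells (1369 and 1329 CPM) than in Gjb2/Gjb6 cells (382, 448 and 432 CPM). Pou3f4, a POU factor needed for hearing, stood at 140, 155 and 131 CPM against 1.18 CPM in intermediate cells (6.54 ± 0.32 on the log2 scale), and gave 1 UMI in marginal cells. Its level was higher in Dcn cells (596 and 225 CPM) than in Gjb2/Gjb6 cells (133, 79.2 and 90.8 CPM). Klf4, a zinc-finger factor, at 655, 493 and 377 CPM (5.56 ± 0.23 against intermediate cells) and Nkx6-1, a homeobox factor, at 136, 99.8 and 82.1 CPM were carried by the Gjb2/Gjb6 cells, since Dcn cells had 94.0 and 71.6 CPM of Klf4 and 10.4 and 0 CPM of Nkx6-1. Against marginal cells, with 2 UMIs each, the ratio was 221 (60.9 to 1830) for Klf4 and 45.8 (12.4 to 382) for Nkx6-1. Zic5 gave no UMI in marginal cells and was at least 38.6-fold higher in basal-gate cells, at a bound of 3 UMIs over the marginal cells. Pou3f3 (255, 304 and 213 CPM) and its divergent neighbour, the noncoding Pantr1 (327, 556 and 508 CPM), were also among the 24. Pantr1 was higher in Dcn cells (1891 and 1023 CPM) than in Gjb2/Gjb6 cells (309, 326 and 290 CPM).

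Several of the 24 encode secreted proteins. Apod, a lipid-binding lipocalin, stood at 5237, 4193 and 4486 CPM against 46.6 CPM in intermediate and 32.6 CPM in marginal cells (log2 fold change 6.73 ± 0.25, edgeR quasi-likelihood test, Benjamini-Hochberg adjusted p = 4.03e-20). It was found in 100% of basal-gate cells and in 14.4% of the erythroid barcodes, and in both sets, at 5215, 3954 and 4182 CPM and at 5579 and 5205 CPM. Clu, an extracellular chaperone, stood at 2691, 2113 and 1550 CPM against 20.1 and 10.7 CPM (6.82 ± 0.28), mainly in Gjb2/Gjb6 cells, since Dcn cells had 449 and 501 CPM. Fn1, encoding fibronectin, at 349, 232 and 182 CPM (6.75 ± 0.30), was nearly absent from Dcn cells at 10.4 and 20.5 CPM. Cemip, a hyaluronan-degrading protein, stood at 285, 174 and 88.1 CPM, gave no UMI in marginal cells and none in Dcn cells of captures 2 and 3, and was at least 51.4-fold higher than in marginal cells. Igfbp2 (46.8, 200 and 277 CPM), Ccl11 (21.3, 160 and 304 CPM) and the noncoding Meg3 (25.5, 129 and 304 CPM) differed between captures by over 5 times. In Gjb2/Gjb6 cells Igfbp2 stood at 34.3, 12.6 and 8.65 CPM and Ccl11 and Meg3 at 0, so that these 3 values rest on the Dcn cells. The protease inhibitor Serpine2 and Itih5, an inter-alpha-trypsin inhibitor heavy chain, complete the secreted proteins, and Itih5 was higher in Dcn cells (1745 and 2004 CPM) than in the others (103, 97.2 and 134 CPM).

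Cdkn1c, a cell cycle inhibitor, was also among the 24. Among membrane proteins, Pdgfra, a receptor of mesenchymal cells, stood at 170, 229 and 225 CPM, gave no UMI in marginal cells, and was at least 64.7-fold higher. Slc1a3, a glutamate transporter (93.5, 309 and 495 CPM, at least 95-fold above marginal cells), and Ifitm1 (230, 393 and 729 CPM, at least 135-fold) were higher in the Dcn cells, at 1567 and 1391 CPM and at 1922 and 2015 CPM. In Gjb2/Gjb6 cells Slc1a3 stood at 77.2, 91.8 and 117 CPM and Ifitm1 at 210, 130 and 186 CPM. Without the Dcn cells the log2 fold change against the mean of both types was 7.65 for Slc1a3 (9.45 with all 135) and 7.88 for Ifitm1 (9.44). The scavenger receptor gene Scara3 (234, 290 and 274 CPM) and Tmem119 (85, 169 and 119 CPM) varied less between captures. Without the Dcn cells, 21 of the 24 genes remained higher and Igfbp2, Ccl11 and Meg3 were too low to be tested. Of the 24, 14 had more CPM in Dcn cells in both captures and 9 had more in Gjb2/Gjb6 cells. Reads of Pdgfra, Meg3, Ebf1, Cdkn1c and Fn1 can overlap a gene on the opposite strand, and whether the counting used strand is not given in the sources used here.

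**Figure D3:**
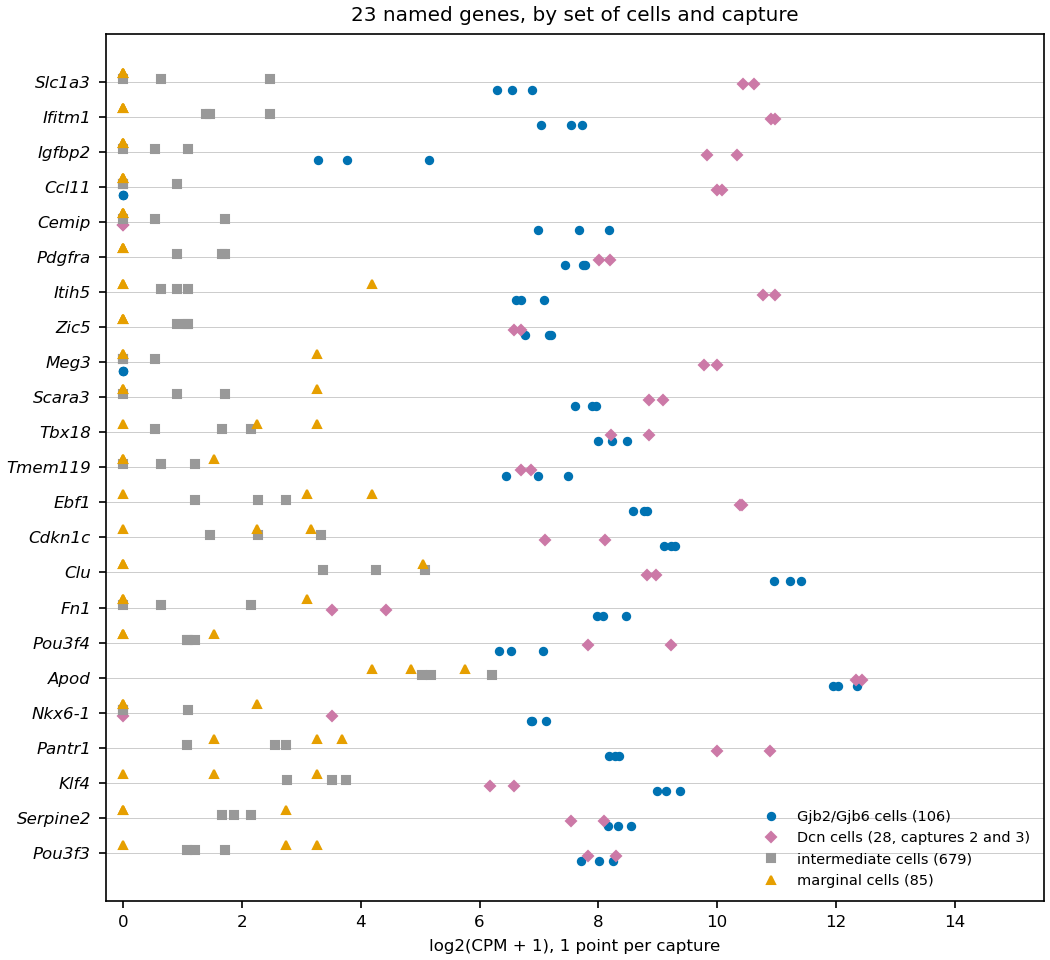
Levels of 23 of the 24 named genes as log2(CPM + 1) in Gjb2/Gjb6 cells, Dcn cells (captures 2 and 3), intermediate and marginal cells, 1 point per capture. Apod, Tbx18 and Pou3f3 lie at like levels in Gjb2/Gjb6 cells and Dcn cells, whereas of these sets Ccl11 and Meg3 are found in Dcn cells and Cemip in Gjb2/Gjb6 cells.

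The connexin genes lie side by side on chromosome 14 (mm10, chr14:57098600-57104702 for Gjb2 and chr14:57123303-57133611 for Gjb6, both on the minus strand). Gjb2 stood at 3320, 3128 and 1696 CPM in basal-gate cells, 841, 756 and 681 CPM in intermediate cells and 233, 232 and 258 CPM in marginal cells of captures 1, 2 and 3. The types did not overlap. The log2 fold change of basal-gate cells was 1.61 ± 0.22 against intermediate (adjusted p = 5.02e-07) and 3.57 ± 0.26 against marginal cells (adjusted p = 8.59e-13, both Benjamini-Hochberg adjusted, edgeR quasi-likelihood test). Gjb6 stood at 1849, 1726 and 1197 CPM in basal-gate cells, 1089, 1131 and 911 CPM in intermediate cells and 190, 327 and 333 CPM in marginal cells. It was higher than in marginal cells by 2.56 ± 0.25 on the log2 scale (edgeR quasi-likelihood test, Benjamini-Hochberg adjusted p = 6.69e-10), but did not pass against intermediate cells (0.40 ± 0.22, edgeR adjusted p = 0.171). Without TMM scaling this difference was 0.60 and passed (edgeR adjusted p = 0.0272). In the Gjb2/Gjb6 cells, where the split fixes the direction, the levels were 3349, 3664 and 2404 CPM and 1865, 2022 and 1700 CPM. Of the 22 connexins and pannexins, 3 were expressed enough to be tested, and the third, Gjc3, at 162, 120 and 94.2 CPM, did not pass against the mean of both types (0.50 ± 0.21, edgeR adjusted p = 0.0677). It was lower than in intermediate (−0.64 ± 0.19, edgeR adjusted p = 0.00939) and higher than in marginal cells (1.63 ± 0.29, edgeR adjusted p = 3.13e-05). Without TMM scaling the difference of Gjc3 from intermediate cells was −0.44 and did not pass (edgeR adjusted p = 0.0836). In the Gjb2/Gjb6 cells, at 163, 139 and 134 CPM, Gjc3 passed against the mean of both types (0.74 ± 0.20, edgeR adjusted p = 0.00153).

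Of 41 tight junction genes, 18 were tested, of which 5 were higher (27.8%) and 4 lower (22.2%), with a median log2 fold change of −0.66. The counts of this list and of those below stand beside 17.2% higher and 16% lower and a median of −0.03 over all genes tested. Of the 332 list genes tested, 93 lie where a gene on the opposite strand is also listed. Because of the filter on low counts, the counts over tested members are a description. The higher genes were Jam3, a junctional adhesion molecule (51.0, 61.4 and 72.9 CPM, log2 fold change against intermediate cells 3.95 ± 0.37), Ocln, encoding occludin, Cxadr, the coxsackievirus receptor, Pard3 and Cgnl1. Occludin stood at 97.8, 95.2 and 60.8 CPM in basal-gate cells against 4.72 CPM in intermediate and 83.0 CPM in marginal cells, so it passed against intermediate (3.77 ± 0.29) but not marginal cells (0.25 ± 0.25, edgeR adjusted p = 0.501). Cxadr stood at 4.25, 76.8 and 267 CPM in captures 1, 2 and 3, and nearly all of it lay in Dcn cells (522 and 890 CPM in captures 2 and 3) rather than in the others (0, 0 and 4.32 CPM). Pard3 did not pass without the Dcn cells (edgeR adjusted p = 0.22). The lower genes were Jam2, F11r, Cgn, which encodes cingulin, and Cldn9, a claudin of marginal cells at 51.0, 9.21 and 3.04 CPM in basal-gate and a mean of 517 CPM in marginal cells. Cldn11 and Tjp1 belong to this family and are left out of its counts because they chose the cells.

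Of 27 genes of cadherin adhesion, 11 were tested, 4 higher and 3 lower (median 0.19), and without the Dcn cells 5 higher and 4 lower (median 0.34). Cdh1 stood at 638, 622 and 395 CPM in basal-gate cells against means of 184 CPM in intermediate and 203 CPM in marginal cells, without overlap (1.47 ± 0.17, edgeR quasi-likelihood test, Benjamini-Hochberg adjusted p = 2.49e-08). Dcn cells had 0 and 20.5 CPM. The others were genes of the junction plaque, Jup, encoding plakoglobin (187, 151 and 88.1 CPM, 1.09 ± 0.19), Ctnnd1, encoding p120 catenin (0.91 ± 0.17), and Mllt4, encoding afadin (1.30 ± 0.21). Epcam, an adhesion molecule of epithelia, was lower, at 34.0, 3.07 and 0 CPM against 369 CPM in marginal cells, as were Ncam1 and Cdh19.

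Of 48 mesenchymal transcription factors, 28 were tested, 19 higher and 7 lower (median 2.02), and without the Dcn cells 16 of 27 were higher and 7 lower (median 1.67). Of the 19, 10, among them Foxc1, passed the filter on low counts only with the sums of basal-gate cells counted. The p-value of Foxc1 therefore describes a gene that had to be high there. Foxc1, a forkhead factor, stood at 344, 316 and 267 CPM against 7.72 and 6.78 CPM (5.47 ± 0.21, edgeR quasi-likelihood test, Benjamini-Hochberg adjusted p = 1.32e-19). Sox9, a factor of cartilage and otic epithelium, stood at 442, 617 and 398 CPM against 13.1 CPM in intermediate and 153 CPM in marginal cells (3.42 ± 0.18), and it was lower in Dcn cells (94.0 and 51.1 CPM). Sox8 (25.5, 50.7 and 45.6 CPM), Nfix (344, 307 and 286 CPM), Id3 (115, 172 and 198 CPM) and Eya1 (89.3, 87.5 and 119 CPM) were higher as well. Ebf2, Ebf3, Twist1 and Prrx2, each under 100 CPM in all captures, gave no UMI in marginal cells. Tcf4 was among the factors that passed only with the Dcn cells included. The lower factors were Sox10, which acts in neural crest cells (119, 52.2 and 45.6 CPM against 299 and 201 CPM, −1.96 ± 0.23), Tbx2, Id2, Id4, Lmx1a, Meis1 and Meis2.

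Extracellular matrix genes went in both directions. Of 46 secreted matrix genes, 18 were tested, 8 higher and 3 lower (median 0.50). Sparc, a collagen-binding matricellular protein, stood at 1437, 1158 and 869 CPM against 83.3 and 79.8 CPM (3.82 ± 0.17, edgeR quasi-likelihood test, Benjamini-Hochberg adjusted p = 2.32e-18), and Mmp2, a gelatinase, at 93.5, 137 and 140 CPM (3.39 ± 0.26). Fbln1 (55.3, 67.6 and 45.6 CPM), Timp2, Efemp2, Nid1 and Ogn were also higher, with Fn1. Spp1, which encodes osteopontin, was lower against the mean of both types through marginal cells, where it averaged 14358 CPM, against 1156, 499 and 213 CPM in basal-gate cells. Of 32 collagen chains 4 were tested, and Col27a1 (106, 115 and 48.6 CPM) and Col9a2 (34.0, 24.6 and 30.4 CPM) were higher and 2 lower. Col27a1 and Col9a2 passed the filter on low counts only with the basal-gate sums counted, so they had to be high there. The collagen median was 2.40 as fitted and 1.58 with genes at 0 UMIs set to their bound. Of 31 laminin and integrin genes 14 were tested, 6 higher and 5 lower (median −0.18, and −0.10 without the Dcn cells), and the laminin chains Lamc1 (128, 169 and 149 CPM, 2.53 ± 0.20), Lama5 and Lamb2 were among the higher.

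**Figure D4:**
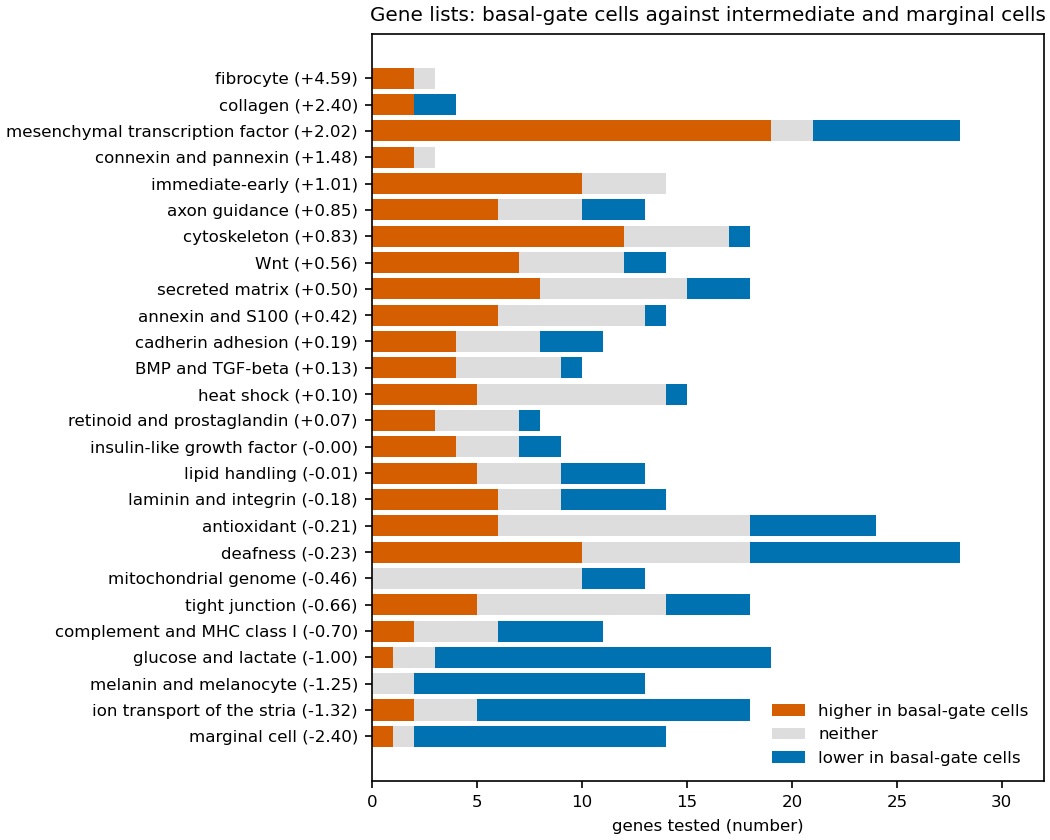
Number of tested genes of each list that were higher, lower or did not pass in basal-gate cells against the mean of intermediate and marginal cells, with the median log2 fold change of the list. Of the mesenchymal transcription factors tested 19 of 28 are higher, and 16 of 19 genes of glucose and lactate metabolism are lower.

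Signalling genes were mixed. Of 14 genes of insulin-like growth factor signalling 9 were tested, 4 higher and 2 lower (median −0.00, and 0.05 without TMM scaling). Without the Dcn cells 2 of 8 were higher and 3 lower (median −0.52). Igfbp5, a binding protein, stood at 519, 943 and 991 CPM against 5.64 and 25.2 CPM (6.31 ± 0.26, edgeR quasi-likelihood test, Benjamini-Hochberg adjusted p = 8.57e-17), and the receptor gene Igf1r at 247, 249 and 213 CPM (1.44 ± 0.16). Igfbp5 was among the 2 higher genes of this list that passed the filter on low counts only with the basal-gate sums counted. Its p-value therefore describes a gene that had to be high there. The ligand gene Igf1 was lower (208, 108 and 82.1 CPM), through marginal cells, where it averaged 2431 CPM. Igfbp4 changed direction with the cells included, since it was higher with all 135 (1.05 ± 0.18) and lower in the Gjb2/Gjb6 cells (−0.59 ± 0.21, edgeR adjusted p = 0.0249). Of 28 genes of BMP and TGF-beta signalling 10 were tested, 4 higher and 1 lower (median 0.13), led by the receptor Tgfbr2 at 383, 356 and 234 CPM against 55.3 and 52.8 CPM (2.59 ± 0.18, edgeR quasi-likelihood test, Benjamini-Hochberg adjusted p = 1.61e-13). Of 44 Wnt genes 14 were tested, 7 higher and 2 lower (median 0.56), including the receptor Fzd9 (59.5, 36.9 and 42.5 CPM, 3.27 ± 0.42), the feedback inhibitor Axin2 (29.8, 43.0 and 60.8 CPM) and the ligand Wnt5a (493, 439 and 307 CPM, 0.60 ± 0.17). Of 35 axon guidance genes 13 were tested, 6 higher and 3 lower (median 0.85), while without the Dcn cells 3 of 12 were higher and 3 lower (median −0.05), and the secreted ligand Slit2 stood at 42.5, 64.5 and 54.7 CPM with no UMI in marginal cells. Among the 6 higher axon guidance genes, 4 passed the filter on low counts only with the basal-gate sums counted.

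Genes of glucose and lactate metabolism were mostly lower. Of 27, 19 were tested, 1 higher and 16 lower (median −1.0), and without the Dcn cells 2 were higher and 15 lower (median −0.90). The glycolytic genes Gapdh (395, 321 and 277 CPM against 540 and 707 CPM, −0.91 ± 0.18), Pgam1 (357, 323 and 195 CPM against 445 and 1166 CPM, −1.36 ± 0.20) and Tpi1 (353, 256 and 216 CPM against 615 and 512 CPM, −1.09 ± 0.19) were below both other types in each capture. The exception was the glucose transporter gene Slc2a1, encoding GLUT1, which stood at 136, 138 and 63.8 CPM against 25.4 CPM in intermediate and 43.6 CPM in marginal cells (1.96 ± 0.23, edgeR quasi-likelihood test, Benjamini-Hochberg adjusted p = 2.84e-08). The sums of the types overlapped for Slc2a1, because 1 marginal sum reached 86.3 CPM.

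Ion transport genes of the stria were lower in 13 of 18 tested genes of 33 and higher in 2, among them the carbonic anhydrase gene Car3 (29.8, 82.9 and 131 CPM), with a median of −1.32. The 2 higher genes passed the filter on low counts only with the basal-gate sums counted. The potassium channel gene Kcnj10 stood at 1262, 739 and 413 CPM in basal-gate cells against 2661, 2150 and 2176 CPM in intermediate cells, where it contributes to the endocochlear potential. It was lower than in intermediate cells (−1.82 ± 0.25, edgeR quasi-likelihood test, Benjamini-Hochberg adjusted p = 4.08e-07) and did not pass against marginal cells (0.08 ± 0.25, edgeR adjusted p = 0.853), where the sign turned without TMM scaling (−0.06). Atp1b1, a sodium pump beta subunit, stood at 2342, 1256 and 827 CPM, highest in capture 1. Slc12a2, the cotransporter NKCC1 of marginal cells, stood at 2151, 1450 and 921 CPM against 2345 and 8279 CPM (−1.61 ± 0.23).

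Transcripts of melanin and melanocyte genes, which mark intermediate cells, were also found in basal-gate cells. None of 13 tested melanin and melanocyte genes of 18 was higher, and 11 were lower (median −1.25), 12 lower than in intermediate cells and none different from marginal cells at an adjusted p under 0.05. Dct, the melanin synthesis enzyme of intermediate cells, stood at 6384, 3460 and 2167 CPM in basal-gate cells. It averaged 19185 CPM in intermediate and 4277 CPM in marginal cells (log2 fold change −2.55 ± 0.25 and −0.07 ± 0.24). Per cell, the median Dct share was 0.350%, 0.257% and 0.193% in Gjb2/Gjb6 cells of captures 1, 2 and 3, and 0.114%, 0.308% and 0.192% in marginal cells. It was 0.0174% and 0.0039% in Dcn cells of captures 2 and 3 and 0.0133% and 0.0106% in erythroid barcodes, so that the share differed over 10 times between kinds of barcode from the same suspension. The 7 intermediate cell markers summed to 8229, 4577 and 2909 CPM in basal-gate cells, with Pmel listed at 0 in every type, against a mean of 23844 CPM in intermediate cells, and marginal cell markers to 174, 64.5 and 24.3 CPM against 2070 CPM in marginal cells. Both sums were highest in capture 1 and lowest in capture 3, as were Kcnj10, Atp1b1 and Slc12a2. The cell of 41656 UMIs gave 29 of the 41 marginal marker UMIs of capture 1, and without it that sum was 62.0 CPM, below capture 2, whereas the other 4 values stayed highest in capture 1 (Slc12a2 at 1653 CPM). In contrast, fibrocyte markers summed to 272, 1173 and 1881 CPM and were lowest in capture 1. Their part in the results above was not tested.

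**Figure D5:**
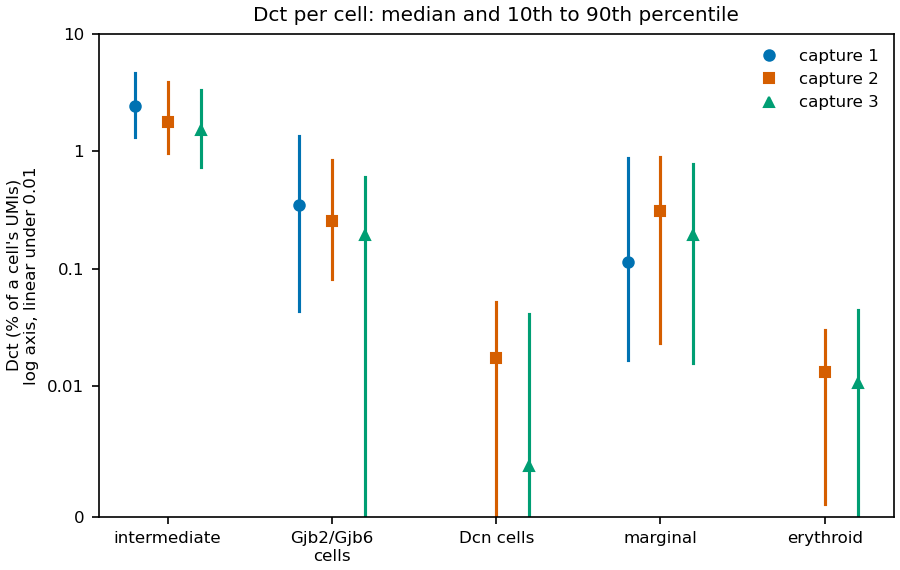
Share of UMIs from Dct per cell (percent, log axis that is linear under 0.01) by cell set and capture, as the median with the 10th to 90th percentile. Intermediate cells lie highest at 2.42, 1.78 and 1.53%, Gjb2/Gjb6 and marginal cells between 0.114 and 0.350%, and Dcn and erythroid barcodes at or under 0.0174%.

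Lipid genes, stress genes and the cytoskeleton add to the profile. Of 25 lipid handling genes 13 were tested, 5 higher and 4 lower (median −0.01, 0.04 without TMM scaling, and 0.18 without the Dcn cells). Scd1, a stearoyl-CoA desaturase, stood at 990, 1281 and 909 CPM against 54.5 and 70.2 CPM (4.13 ± 0.18, edgeR quasi-likelihood test, Benjamini-Hochberg adjusted p = 8.82e-19), and the lipid droplet gene Plin4 at 85, 90.6 and 112 CPM, with none in Dcn cells of captures 2 and 3. Apoe, an apolipoprotein, stood at 990, 1207 and 1626 CPM (2.63 ± 0.21) and was highest in Dcn cells (4440 and 4131 CPM). Of 21 retinoid and prostaglandin genes 8 were tested, 3 higher and 1 lower (median 0.07, and −0.27 without the Dcn cells). Ptgds stood at 31530, 22372 and 16211 CPM, above intermediate cells (6459 CPM, 1.62 ± 0.23) and not distinguishable from marginal cells (22017 CPM, 0.21 ± 0.22, edgeR adjusted p = 0.535).

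Of 25 immediate-early genes, which respond within minutes to stimuli including dissociation, 14 were tested, 10 higher and none lower (median 1.01), and without the Dcn cells 8 of 13 were higher. Of the 10, 6 passed the filter only with the basal-gate sums counted. Egr1 stood at 63.8, 67.6 and 36.5 CPM against 0.293 and 2.88 CPM and Jund at 667, 527 and 416 CPM (0.87 in log2 fold change). Junb passed only with the Dcn cells, where it stood at 188 and 81.8 CPM. Of 17 heat shock genes 15 were tested, 5 higher and 1 lower, and a median of 0.10 that was 0.21 without the Dcn cells, with Hspb1, a small heat shock protein, at 489, 416 and 331 CPM against 13.8 and 90.7 CPM (3.64 ± 0.18). Of 29 cytoskeletal genes 18 were tested, 12 higher and 1 lower (median 0.83), and without the Dcn cells 10 higher and none lower (median 0.55). Actb stood at 2274, 3551 and 3085 CPM against 964 and 1816 CPM (1.13 ± 0.18), and the myosin light chain gene Myl6 at 680, 616 and 562 CPM against 229 and 326 CPM. Vim, encoding vimentin, passed with all 135 cells (42.5, 75.3 and 134 CPM, 1.04 ± 0.31) and not in the Gjb2/Gjb6 cells (38.6, 32.4 and 13 CPM, −0.55 ± 0.31, edgeR adjusted p = 0.173). Of 16 annexin and S100 genes 14 were tested, 6 higher and 1 lower, with S100b at 4493, 3707 and 3431 CPM against 1510 and 1220 CPM (1.48 ± 0.18). Of 26 antioxidant genes 24 were tested, 6 higher and 6 lower (25% each). Among 19 genes of complement and MHC class I 11 were tested, 2 higher (18.2%, near the 17.2% of all genes) and 5 lower (45.5%). Here too the 2 higher genes passed the filter only with the basal-gate sums counted. Of 13 genes of the mitochondrial genome none was higher and 3 were lower, and 12 were lower than in intermediate cells.

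Of 50 genes for hereditary deafness 28 were tested, 10 higher and 10 lower (median −0.23), and without the Dcn cells 11 were higher and 10 lower (median −0.11). The higher genes included Pou3f4, Col9a2, Gjb2, Eya1, Mpzl2, Gjb6, Myh9, Osbpl2 and Actg1. Mpzl2, an adhesion protein of the immunoglobulin family, stood at 285, 246 and 216 CPM against 146 CPM in intermediate and 45.1 CPM in marginal cells (1.52 ± 0.17, edgeR quasi-likelihood test, Benjamini-Hochberg adjusted p = 1.35e-08), and at 0 and 10.2 CPM in Dcn cells. Of 15 marginal cell genes 14 were tested, 12 lower and 1 higher, a direction largely set by the gates, which used other marginal cell genes. Of 12 fibrocyte genes 3 were tested and 2 were higher, Car3 and Cp, the copper oxidase ceruloplasmin, at 183, 350 and 465 CPM (4.59 ± 0.32). Car3 and Cp passed the filter on low counts only with the basal-gate sums counted. Their p-values therefore describe genes that had to be high there.

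The 10 genes named by rule for the lowest fold changes were Fads6, Gas6, Pla2g7, Pfkfb3, Spint2, St6galnac2, Fam189a2, Ptprf, Taf1d and Ceacam1. Pfkfb3, which drives glycolysis, stood at 123, 76.8 and 18.2 CPM against 254 and 454 CPM (−2.33 ± 0.26). St6galnac2, a sialyltransferase, stood at 85, 41.5 and 30.4 CPM against 227 and 220 CPM (−2.24 ± 0.22), and Ceacam1, an adhesion protein, at 34.0, 24.6 and 21.3 CPM against 139 and 105 CPM (−2.16 ± 0.25). Taf1d averaged 794 CPM in intermediate cells and 125 CPM in marginal cells, and at 111, 56.8 and 57.7 CPM in basal-gate cells it did not pass against marginal cells (edgeR adjusted p = 0.0607). The remaining genes were lower mainly against marginal cells, Spint2 for example at 111, 58.4 and 42.5 CPM against 135 CPM in intermediate and 742 CPM in marginal cells. Reads of Gas6, Pla2g7, Pfkfb3, St6galnac2, Taf1d and Ceacam1 can likewise overlap a gene on the opposite strand.

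The capture of nuclei, with 47 gated nuclei of 10701 and no replicate, gave values for the same genes without a test. These 47 held a median of 8 UMIs of the 4 gating genes. Their median mitochondrial share was 10.4%, against 1.98% in intermediate and 2.05% in marginal nuclei, so the groups differed in quality. Of the 24 higher genes, 23 were also above both other types in nuclei, as were 36.8% of the 6732 genes tested in cells and listed for nuclei. A Poisson 95% lower bound above both upper bounds, which cover counting error only, was found for 22 of the 24 and for 6.77% of all genes. Apod stood at 6070 CPM (5597 to 6572) in basal-gate nuclei, 220 CPM in intermediate and 280 CPM in marginal nuclei. Pou3f3 gave 0 UMIs in basal-gate nuclei, with a Poisson 95% upper bound of 36.8 CPM, and none in the other nuclei, whereas its neighbour Pantr1 stood at 309 CPM (210 to 439). Of the 10 lower genes, 7 were below both other types, as were 41.6% of all genes, and 2 had an upper bound below both lower bounds, against 1.9% of all genes. Gjb2 and Gjb6 reached 0.05% of UMIs in 38 of the 47 nuclei, and 3 of the 47 had at least 3 UMIs of Dcn. Both limits were met by 1 nucleus and neither by 7, so the nuclei were not separated as the cells were. In the cell captures, 41 barcodes had at least 3 UMIs of Dcn, of which 29 passed the gate.

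Basal-gate cells were also compared by the number of genes detected, after each cell was thinned to 1000 UMIs, with no cell left out. The median was 557, 545.5 and 526 genes in captures 1, 2 and 3, or 543 ± 15.7 (SD, n = 3), against 475.5 ± 6.06 in intermediate and 571 ± 32.6 in marginal cells. Basal-gate cells lay above intermediate cells in each capture and overlapped marginal cells. With mitochondrial genes left out, the mean was 634 ± 30.8 in basal-gate, 641 in intermediate and 691 in marginal cells, and the order of basal-gate and intermediate cells held in captures 1 and 2 (657 and 646 against 637 and 636 genes) and turned in capture 3 (599 against 651). Without thinning it was 2465 genes in basal-gate cells. Dcn cells had 580.5 and 561.5 genes at 1000 UMIs in captures 2 and 3, against 541.5 and 505 genes in Gjb2/Gjb6 cells.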

How the data were processed

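The authors made the count tables from 10x Genomics Chromium libraries. The submitters' processing notes name Cell Ranger 2.0.0 and mm10. The deposited values are raw counts per capture, without normalization, and whether counting used strand is not given in the sources used here. Each suspension was pooled from several mice, whose number the sources give differently. The cells, the gene lists and the split of basal-gate cells were chosen with earlier results of these data known.

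No doublets were removed from the results given. In an alternative, the barcodes with the highest Scrublet scores (scanpy 1.11.5) were left out, a share that grew by 0.8% for every 1000 barcodes in the capture. UMIs were summed per capture and cell type, with at least 5 cells in a sum, and tested in edgeR 4.0.16 (R 4.3.3) by a robust quasi-likelihood fit after filterByExpr and TMM scaling. Basal-gate cells were compared with the mean of intermediate and marginal cells and with each of them. Adjusted p-values are those of Benjamini and Hochberg (Benjamini-Hochberg), and 15 gating genes were left out of the counts. The capture was a block because the sums of a capture come from 1 suspension. Over 4538 genes, deviations of 2 types from the same capture correlated at 0.0049 to 0.213. With the block, the p-values measure how the differences between types vary over 3 captures, with 1 estimate of the spread shared by the 3 types. The common biological coefficient of variation was 0.132. DESeq2 1.42.0 was an alternative. In simulated sums of 6749 genes for the comparison with both other types, the edgeR fit found 57 of 94 genes with a 2-fold change and 86 of 88 with a 4-fold change, and 4 of its 147 calls were false. Changed genes that failed the filter are not in these counts. The simulated sums had no capture effect, no mixture of cell sets and a smaller share of changed genes than was called in the data.

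CPM is 1000000 times UMIs over all UMIs of the sum. A gene at 0 UMIs was given the bound of 3 UMIs over its group, and in nuclei the Poisson 95% upper bound. The 24 named higher genes had the largest fold changes among genes with an adjusted p under 0.05, a mean basal-gate level of at least 100 CPM, and a level above both other types in 3 of 3 captures. The 10 named lower genes were chosen in the same way with at least 100 CPM in the other types, and predicted genes (Gm or Rik symbols) were passed over. Members of 26 fixed lists could also be named. Some genes that these rules allow, although included in the counts, are not reported here. Gene positions are those of GENCODE on mm10, and promoters were found in RefSeq for 29 of 38 named genes. Intervals are exact 95% binomial or Poisson intervals from scipy 1.17.1. Python 3.11.15, numpy 2.4.6, pandas 2.3.3 and matplotlib 3.10.9 were used.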

Additional observations from a re-analysis of the deposited data

How the results depend on the processing

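Of 77 values of counts and cell numbers under other settings, 60 stayed within the limits set for them, 1.5 times for counts of genes, and 17 moved. The fold changes of the 34 named genes kept their direction and their side of the threshold in all 471 values available under other settings. Settings in which a gene was not tested are not among the 471, such as Igfbp2, Ccl11 and Meg3 without the Dcn cells. The genes were chosen as the most extreme in these same data, so this is no independent check. Leaving out each capture in turn gave 635 to 1297 higher and 396 to 1121 lower genes, 561 to 1236 genes higher than in intermediate and 545 to 1196 higher than in marginal cells, and the lowest value of each range was that without capture 2, the capture with the most basal-gate cells. Genes per cell at 1000 UMIs ranged from 536 to 551 in the same way. DESeq2 called 875 higher and 647 lower genes. Without the replicate block, 1142 genes were higher and 1057 lower, 1121 were higher than in intermediate and 1033 higher than in marginal cells, so the pairing by capture changed no count by over 1.5 times. With no filter on low counts, 1649 and 1160 genes were called.

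The number of basal-gate cells depended on the gate. It was 108 with a ratio of 5 in place of 2 and 18 without Cldn11, and, in settings chosen after seeing the data, 106 with the Gjb2/Gjb6 cells alone and 63 with at most 1 UMI of the intermediate cell genes. With those 63 cells, 708 genes were higher, 693 higher than in intermediate cells and 691 higher than in marginal cells, in sums of fewer cells. The nuclei gate gave 31 with a ratio of 5 and 181 with at least 3 UMIs. Genes per cell were 930 at 2000 UMIs, 634 without mitochondrial genes and 2465 without thinning. Depth limits capture 1, whose sums hold 16 basal-gate and 10 marginal cells, and genes with few UMIs in marginal cells, whose fold changes have wide intervals. Causes of these differences were not tested beyond what each setting removes.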

Other observations

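Outside the gate, 12 further barcodes of the cell captures held at least 3 UMIs of Dcn, and 6 of these had no Cldn11 UMI. Among the nuclei, 22 barcodes held at least 3 UMIs of Dcn. Of the barcodes that failed a single limit of the gate, 16 failed the ratio to the intermediate cell genes, 12 the share of Malat1, 9 the limit on spindle cell genes and 2 the ratio to the marginal cell genes.

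The Gjb2/Gjb6 cells and the Dcn cells also differed in genes that belong to none of the lists above. Ppp1r1b, a regulator of protein phosphatase, stood at 986, 1044 and 1181 CPM in the Gjb2/Gjb6 cells of captures 1, 2 and 3 and at 31.3 and 0 CPM in the Dcn cells of captures 2 and 3. Aif1l, an actin-binding protein, stood at 2127, 2103 and 1717 CPM against 62.7 and 10.2 CPM. Ptn, the growth factor pleiotrophin, stood at 1274, 1266 and 1297 CPM in Gjb2/Gjb6 cells, below both captures of Dcn cells. Emilin2, a matrix glycoprotein, stood at 627 and 368 CPM in Dcn cells and gave no UMI in the others. The sets were separated after their values were seen, and these differences were not tested.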
